A study of Homo sapiens with 12 samples.

Results

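The question addressed here is whether the early transcriptional response to stem cell factor (SCF) differed between HUDEP-2 cells carrying a control guide and HUDEP-2 cells in which the EGR1 locus was targeted by CRISPR interference. The quantity described throughout is the response difference, which is the log2 fold change from PBS to SCF in sgEGR1 cells minus the same log2 fold change in sgControl cells. A positive value means a more positive (or less negative) response in sgEGR1 cells. Members were chosen by their labels alone and are all 12 of the 12 RNA-seq libraries of the series, with 3 libraries in each of 4 groups. HUDEP-2 cells are an established line of human erythroid progenitors, immortalised from cord blood, whose growth requires Kit signalling. All groups expressed dCas9 fused to the KRAB repressor domain from a lentiviral vector with a GFP reporter, were sorted for GFP, and were starved of growth factors for 5 h. The sgControl PBS and sgControl SCF groups carried a scrambled guide, and the sgEGR1 PBS and sgEGR1 SCF groups carried a guide to an upstream element of EGR1. PBS or SCF at 50 ng/mL was then given for 1 h. Each construct was represented by 1 guide and by a sorted pool of infected cells, so guide and pool cannot be told apart from the loss of EGR1. The study describes the replicates as biological, whereas the labels give only a replicate number.

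SCF is the ligand of the receptor tyrosine kinase Kit, which signals through RAS and ERK, PI3K and AKT, and STAT5 to sustain survival and proliferation of erythroid precursors. ERK activation induces immediate early genes within minutes, among them the zinc finger transcription factor EGR1, the FOS and JUN members of AP-1, and feedback inhibitors such as dual specificity phosphatases. AKT phosphorylates FOXO factors and thereby reduces transcription of genes that are switched on by starvation. NAB2 is a corepressor that binds EGR proteins and is itself known as an EGR target, which makes it a natural readout of EGR activity.

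The EGR1 guide and the promoters are shown because they define the perturbation and the marker genes. In the line below, capitals mark the PAM, the bases next to the target site that Cas9 requires.

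sgEGR1: ggatgacagcgatagaacccCGG

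The sgEGR1 guide matched the hg38 primary chromosomes exactly at 1 place, chr5:138464830-138464849 on the plus strand, 630 bases before the annotated start of EGR1 (chr5:138465479-138469303, plus strand, GENCODE v44) and outside any annotated gene. The next lines give the bases before the annotated start of EGR1 (chr5:138465229-138465478) and of NAB2 (chr12:57088864-57089042), both on the plus strand of GRCh38.p14 as taken from RefSeq. Capitals mark 2 motifs searched on both strands. They are a form of the CArG box bound by serum response factor (CC, ATAT, any 2 bases and GG in a run) and GCGTGGG, the core of the EGR site.

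EGR1: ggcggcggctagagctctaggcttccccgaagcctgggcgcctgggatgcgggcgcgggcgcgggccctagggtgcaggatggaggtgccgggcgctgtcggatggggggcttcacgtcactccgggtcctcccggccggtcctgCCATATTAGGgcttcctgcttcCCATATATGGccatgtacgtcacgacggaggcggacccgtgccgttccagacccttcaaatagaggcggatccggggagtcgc

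NAB2: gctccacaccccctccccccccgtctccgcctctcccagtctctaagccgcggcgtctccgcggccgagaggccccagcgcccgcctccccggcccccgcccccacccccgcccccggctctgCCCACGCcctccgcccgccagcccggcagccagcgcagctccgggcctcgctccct

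The EGR1 window held 2 matches to the CArG form and 0 to GCGTGGG. The NAB2 window held 1 match to GCGTGGG, on the minus strand. For comparison, among the 250 bases before the start of 27305 genes, 5.96% held GCGTGGG and 0.308% held the CArG form on either strand. The shares were 8.75% and 0.264% for 10992 of the genes that passed the filter on low counts described below. The NAB2 window shown has 179 bases and is shorter than these windows. These matches are letters in a window and were not tested for binding.

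Library totals ranged from 23.5 to 32 megacounts, and 15492 genes passed the filter on low counts. The summed level of 12 erythroid markers was 21200 to 24601 CPM (counts scaled to a common library size) across all libraries. The megakaryocyte genes PF4, PPBP, GP9 and VWF, the granulocyte genes MPO, ELANE and AZU1 and the lymphoid genes CD3E and MS4A1 were at 0 in all of them. The 5 mast cell or basophil markers summed to 147 to 359 CPM and their ranges overlapped in the 4 groups. Because these are bulk samples, fewer responding cells and less RNA per cell cannot be told apart.

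EGR1 was lower in sgEGR1 cells before stimulation, rose in both guide groups after SCF, and reached a lower level in 2 of the 3 stimulated sgEGR1 libraries. After PBS, EGR1 was at 10.9, 5.99 and 7.45 CPM in sgControl replicates 1 to 3 and at 2.04, 1.12 and 0.977 CPM in sgEGR1 replicates 1 to 3. After SCF, it was at 208, 240 and 171 CPM in sgControl replicates and at 40.4, 57.4 and 204 CPM in sgEGR1 replicates. The PBS groups did not overlap, and the stimulated sgEGR1 replicates 1 and 2 lay below every stimulated sgControl library. For EGR1, the library labelled sgEGR1 SCF replicate 3 lay within the stimulated sgControl range. The counts over all genes and the EGR1 and NAB2 results are therefore given with all 12 libraries and with the 11 libraries that remain without it. Other genes did not all place this library with sgControl. Its raw counts were 4437 for TPM4 and 6395 for RNA45SN4, against 3755 to 3800 and 3082 to 3806 in sgControl SCF. For HBG2 it had 1242, within the 889 to 1450 of sgControl SCF. Whether its label is wrong was not tested. Values of other genes are from all 12 libraries unless stated. Of 358 genes in the gene lists described below with an interval in both fits, the response difference moved by a median of 0.0278 log2 units without that library and by more than 0.2 for 17 of them. EGR1, NAB2, HBG2, DUSP5, CHAC1, LIF and HBE1 are among these 17.

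The mean rise of EGR1 in CPM was smaller with the EGR1 guide, which was not tested, whereas a smaller fold change was not shown. From the group means, EGR1 rose by 198 CPM in sgControl cells and by 99.1 CPM in sgEGR1 cells, which was 50% of the sgControl rise, or 24% when that library was left out. On the log2 scale the response was 4.66 ± 0.55 (SE) in sgControl cells (edgeR adjusted p = 0.000123) and 6.18 ± 1.06 in sgEGR1 cells (edgeR adjusted p = 0.000145). The response difference was 1.52, with a 95% interval from -1.05 to 4.10 (edgeR unadjusted p = 0.194). With 11 libraries it was 0.52, with an interval from -0.49 to 1.54 (unadjusted p = 0.274). An exact two-sided permutation of the guide labels within each treatment gave p = 0.545, where 0.005 is the smallest value the 400 arrangements can give. It used log2(CPM + 0.5) without the term for replicate 1, on which the difference was 0.81. Its null is no guide effect at all, which the EGR1 levels after PBS do not meet, so it cannot decide on the response difference alone. Fold induction of EGR1 was thus not shown to be smaller with the guide. The library was left out because of its EGR1 level, so the narrower 11-library interval is a description. Leaving out 1 more library gave 0.06 (without sgEGR1 SCF replicate 2) to 0.89 (without sgEGR1 PBS replicate 1).

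For NAB2, the corepressor of EGR proteins, the response difference was not called in either fit. It was more negative when the library labelled sgEGR1 SCF replicate 3 was left out. After PBS, NAB2 was at 21.9, 20.1 and 19.2 CPM in sgControl replicates 1 to 3 and at 16.6, 16.3 and 17 CPM in sgEGR1 replicates. After SCF, it was at 53.6, 29.7 and 33.4 CPM in sgControl replicates and at 19.7, 17.4 and 35.2 CPM in sgEGR1 replicates. Every stimulated sgControl library exceeded every unstimulated one, whereas in sgEGR1 cells replicate 3 alone stood well above the PBS libraries. That is the same library in which EGR1 was at the sgControl level.

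With all libraries, NAB2 rose in sgControl cells, by 0.92 ± 0.23 on the log2 scale (edgeR adjusted p = 0.0296), while the sgEGR1 value was 0.55 ± 0.24 (edgeR adjusted p = 0.202). The response difference was -0.37, with an interval from -1.10 to 0.36 (unadjusted p = 0.294). The exact permutation, on a difference of -0.42 without the term for replicate 1, gave p = 0.41 and has the limit given for EGR1. With 11 libraries, the sgEGR1 value was 0.10 (adjusted p = 0.805) and the difference was -0.81, with an interval from -1.25 to -0.38. Its unadjusted p was 0.00157 by edgeR, which is 1 after adjustment over all genes, and DESeq2 gave an adjusted p of 0.0516. The library left out was chosen by its EGR1 level and also had the highest NAB2 level of the sgEGR1 libraries. The 11-library values of NAB2 are therefore a description and no separate evidence. With all libraries, the size also depended on sgControl SCF replicate 1. Without that library the difference was -0.06 among the remaining libraries. Leaving out sgEGR1 SCF replicate 1 or 2 instead gave -0.13 or -0.20. From the 11 libraries, leaving out 1 more gave -0.53 (without sgControl SCF replicate 1) to -0.96 (without sgEGR1 PBS replicate 1). The 3' end of NAB2 (chr12:57089043-57095476, plus strand) overlaps an exon of STAT6 (chr12:57095408-57132139, minus strand), and the sources do not say whether the counts respect strand. STAT6 stayed between 92.4 and 107 CPM in all libraries.

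**Figure D1:**
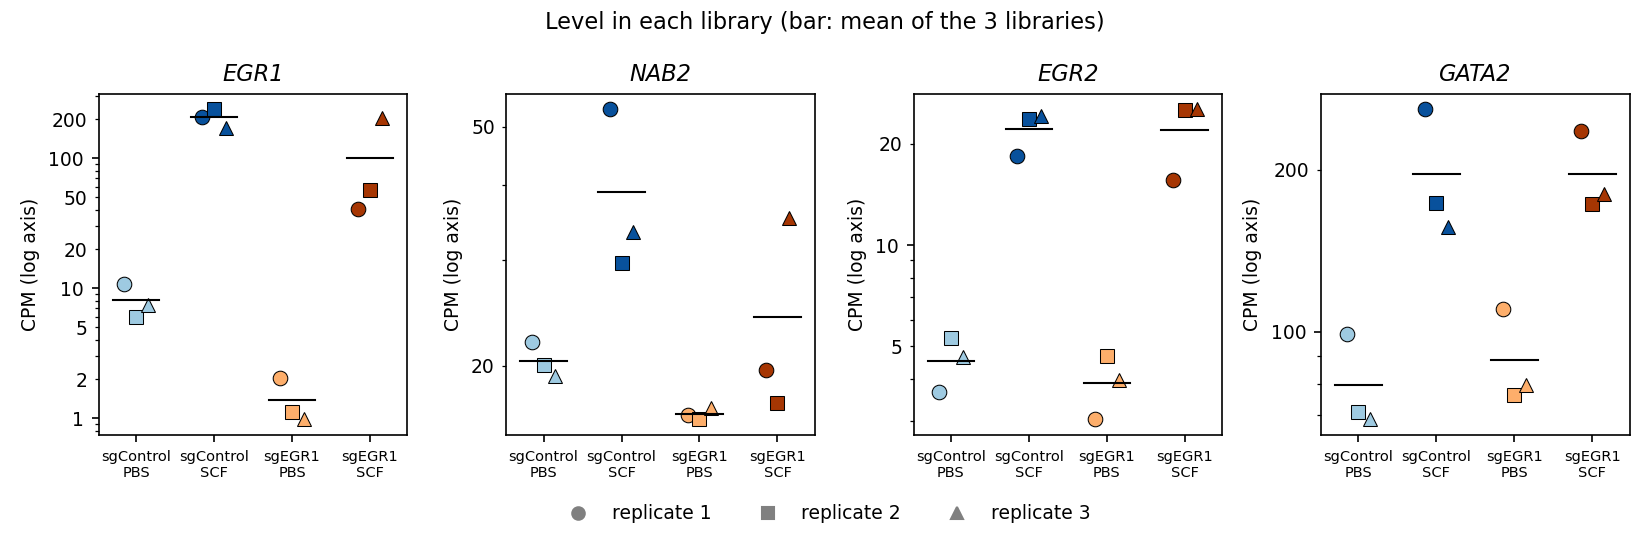
CPM on log axes of EGR1, NAB2, EGR2 and GATA2 in each of the 12 libraries by group, with marker shape for the replicate number and a bar for the mean of 3 libraries. For EGR1 and NAB2, sgEGR1 SCF replicate 3 (204 and 35.2 CPM) lies among the stimulated sgControl libraries, while EGR2 and GATA2 reach similar levels with both guides.

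Across the transcriptome, SCF changed 1289 of 15492 genes in sgControl cells (8.32% of genes tested, 818 higher and 471 lower) and 1326 in sgEGR1 cells (8.56%, 781 higher and 545 lower) at an edgeR adjusted p under 0.05. With 11 libraries the counts were 1186 (7.49%) and 778 (4.92%). These counts depended on single libraries. In sgControl cells the count was 827 without PBS replicate 1, 800 without PBS replicate 3 and 646 without SCF replicate 1. In sgEGR1 cells it was 711 without PBS replicate 2, 712 without PBS replicate 3, 787 without SCF replicate 2 and 778 without SCF replicate 3.

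No gene passed the threshold for the response difference itself with all libraries (0 of 15492 by edgeR, 0% called), and 604 genes, 3.90% of those tested, had an unadjusted p under 0.05. DESeq2 called 8 genes with the same model. Among the 11 libraries, edgeR called 2 genes of 15824 (0.0126%), the antisense RNA BZW1-AS1 and the pseudogene TCAF1P1, with 565 genes at an unadjusted p under 0.05, and DESeq2 called 13. BZW1-AS1 was at 1.45, 1.02 and 0.97 CPM in sgControl PBS, at 1.69, 1.67 and 1.10 CPM in sgControl SCF and at 1.49, 1.42 and 1.40 CPM in sgEGR1 PBS. In sgEGR1 SCF it was at 0, 0 and 1.78 CPM. TCAF1P1 was at 1.61 to 2.50 CPM in every sgControl library, at 0 in the 3 sgEGR1 PBS libraries and at 2.76, 1.67 and 0 CPM in sgEGR1 SCF. Both calls thus rest on a group at 0 and on leaving out the library with the opposite value.

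How small a difference could be seen depended mainly on expression level. The half-width of the 95% interval of the response difference had a median of 0.263 log2 units over all genes with an interval, and of 0.285 with 11 libraries. By mean level, the median half-width was 1.47 for genes under 1 CPM, 0.648 from 1 to 5 CPM, 0.303 from 5 to 20 CPM, 0.168 from 20 to 100 CPM and 0.121 over 100 CPM. The difference a gene would need to be called at the level of 0.05 divided by the number of genes was larger, with medians of 5.26, 2.32, 1.08, 0.60 and 0.43 log2 units in the same bins. A 2-fold difference was large enough by this measure for 51.5% of genes, for 96.1% of those at 20 to 100 CPM and for 0% of those under 5 CPM. Low immediate early genes such as EGR3, DUSP5 and SPRY4 are in the bins where only large differences could be seen. For 94 genes, which include EGR3, no interval could be had because at least 1 group was at 0.

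**Figure D2:**
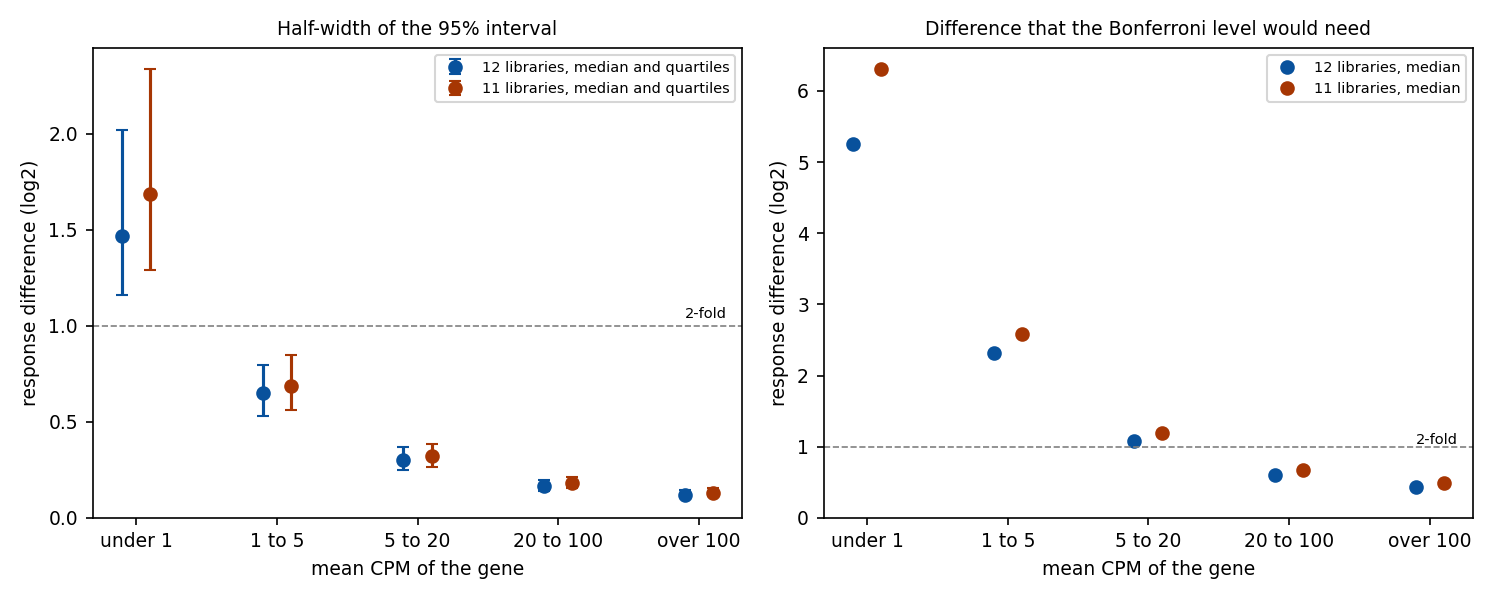
Left, median half-width of the 95% interval of the response difference with quartiles as error bars, and right, median difference needed at the Bonferroni level, both in log2 units by bin of mean CPM for the fits with 12 and 11 libraries. Medians fall from 1.47 to 0.121 (left) and from 5.26 to 0.43 (right) with 12 libraries, and the dashed line marks a 2-fold difference.

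Most genes with a called average SCF response over both guide groups had similar responses with both guides within that resolution. Responses of opposite sign cancel in this average, and a response in 1 guide group only is reduced in it. Genes with a large difference can thus be missing from this set. The average response was called for 2868 genes (18.5% of those tested), and for 2442 (15.4%) with 11 libraries. Their median response was 0.210 log2 units and the median difference, signed so that positive means a larger response in sgEGR1 cells, was 0.0018. The 95% interval excluded a 2-fold difference for 2722 of them (94.9%) and a 1.5-fold difference for 2480 (86.5%). However, the half-width was smaller than the average response for only 1453 (50.7%). For the remaining genes with an interval, a difference as large as the average response would not have been told from 0. A loss of the whole response in 1 guide group would be a larger difference than the average response and was not counted. Of the 2868 genes, 135 (4.71%) had an unadjusted p under 0.05 for the difference, which is near the 3.90% of all genes.

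A gene called in 1 guide group and not in the other was not thereby shown to differ. In total, 795 genes were called in both groups, 494 in sgControl cells only and 531 in sgEGR1 cells only. Of the 494 genes, 474 moved in the same direction with the EGR1 guide, and 274 reached an unadjusted p under 0.05 there. Of the 531 genes, 504 moved in the same direction with the control guide, and 296 reached an unadjusted p under 0.05. None of these genes was called for the difference with all 12 libraries. With 11 libraries the groups were 562, 624 and 216 genes, and both genes called for the difference were in the last of these.

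A test that asks for positive evidence of a kept response was passed by 12 genes (0.0775% of those tested). It required the response in each guide group to exceed 0.5 times that in the other on the log2 scale, in 1 direction, and 228 genes had an unadjusted p under 0.05. MCL1, which protects from apoptosis, was at 115 to 117 CPM in sgControl PBS, 210 to 224 CPM in sgControl SCF, 116 to 126 CPM in sgEGR1 PBS and 221 to 244 CPM in sgEGR1 SCF. Its responses were 0.91 ± 0.03 and 0.95 ± 0.03, with a difference of 0.04 and an interval from -0.06 to 0.14. PNRC1, a proline-rich nuclear receptor coactivator, was the 1 gene of the 12 that fell, from 90.1 to 94 CPM down to 30.9 to 38 CPM in sgControl cells and from 86 to 100.4 CPM down to 33.1 to 39.6 CPM in sgEGR1 cells. The unstimulated and stimulated ranges of both genes were well apart with either guide.

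GATA2, a transcription factor of early progenitors that Kit is known to act with, also kept its response. It was at 99.1, 70.8 and 68.7 CPM in sgControl PBS and at 259, 173 and 157 CPM in sgControl SCF. It was at 110.3, 76.2 and 79.5 CPM in sgEGR1 PBS and at 236, 173 and 179.9 CPM in sgEGR1 SCF. Replicate 1 was highest in every group, and SCF raised GATA2 above all PBS libraries with both guides. The responses were 1.29 and 1.15, and the difference was -0.14 (interval from -0.30 to 0.01), or -0.17 (from -0.33 to -0.01, unadjusted p = 0.0345) with 11 libraries. The other kept genes included EGR2, FOSL1, the methionine adenosyltransferase MAT2A, MYC, ETS2, MYADM, CDC25A and DUSP6.

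Without the library labelled sgEGR1 SCF replicate 3, 10 genes (0.0632%) passed the kept test. DUSP6, CDC25A and ETS2 were then not among them. EGR1 was, with a sgEGR1 response of 5.18, but the library left out had been singled out by its EGR1 level, so nothing is read from that call. The count of kept genes was 2 with no term for replicate 1. It was 7 without sgControl PBS replicate 2, sgControl PBS replicate 3, sgControl SCF replicate 2 or sgEGR1 PBS replicate 1, and 6 without sgControl SCF replicate 1.

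**Figure D3:**
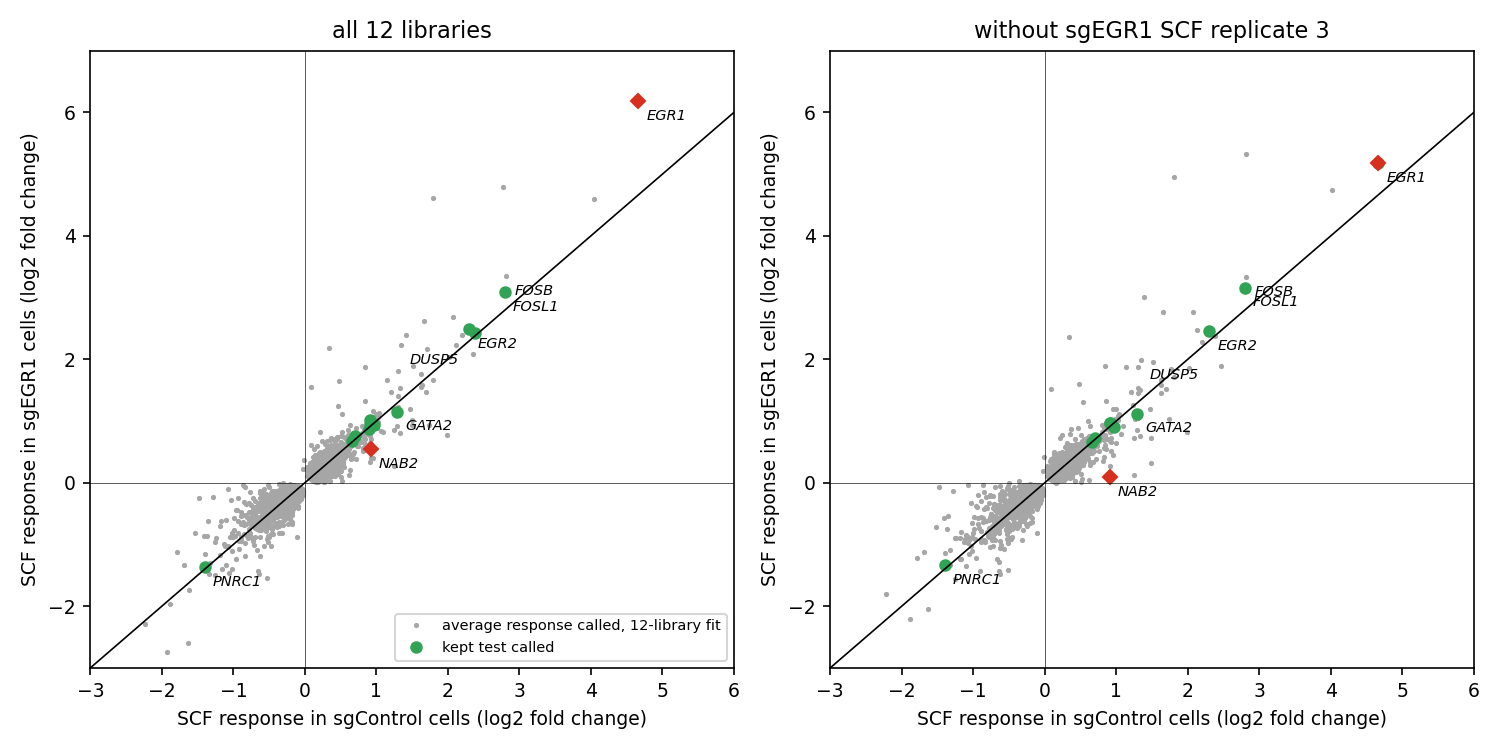
SCF response (log2 fold change) in sgEGR1 cells against that in sgControl cells for the 2847 genes with a called average response and an interval, with the line of equality, for 12 libraries (left, 3 genes outside the axes) and 11 libraries (right, 5 outside). Genes that passed the kept test in each fit are green, except that EGR1 and NAB2 are red, and NAB2 moves from 0.55 to 0.10 on the vertical axis when the library is left out.

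List counts below stand beside shares over all genes tested, which were 18.5% for the average response. The shares per guide were 8.32% in sgControl cells and 8.56% in sgEGR1 cells (4.92% with 11 libraries). Among the EGR family and NAB corepressors, 5 of 6 listed genes were tested and all 5 had a called average response upward. In sgControl cells 5 were called, in sgEGR1 cells 4, and 3 with 11 libraries. EGR2, which shares the EGR site, was at 3.65, 5.28 and 4.65 CPM in sgControl PBS and at 18.5, 23.7 and 24.3 CPM in sgControl SCF. In sgEGR1 cells it was at 3.02, 4.66 and 3.98 CPM after PBS and at 15.6, 25.2 and 25.4 CPM after SCF. It rose in both groups with no overlap between PBS and SCF, by 2.30 ± 0.09 and 2.49 ± 0.10, and the difference was 0.20 (interval from -0.09 to 0.48). EGR3 was at 0 in all 6 PBS libraries and at 0.333 to 0.932 CPM in all 6 SCF libraries. NAB1, the other NAB corepressor, rose by 0.38 and 0.33, with a difference of -0.05 (interval from -0.29 to 0.20).

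Of 11 tested AP-1 genes, 10 had a called average response, all upward, with 7 called in sgControl cells and 10 in sgEGR1 cells, also with 11 libraries. FOSB was at 13.5, 6.10 and 7.25 CPM in sgControl PBS and at 74.7, 62.8 and 47.2 CPM in sgControl SCF. It was at 11.6, 4.36 and 5.34 CPM in sgEGR1 PBS and at 82.8, 64.4 and 60.2 CPM in sgEGR1 SCF. With either guide the SCF libraries lay above all PBS libraries. The responses were 2.82 ± 0.17 and 3.35 ± 0.18, and the difference was 0.53 (interval from 0.00 to 1.06, unadjusted p = 0.0485), which was not called.

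FOSL1 rose by 2.79 and 3.09 and passed the kept test. FOSL2 was the AP-1 gene with the smallest unadjusted p in the other direction. It rose by 0.67 ± 0.08 in sgControl cells and by 0.40 ± 0.08 in sgEGR1 cells, with a difference of -0.26 (interval from -0.51 to -0.02, unadjusted p = 0.0393), and of -0.18 (from -0.40 to 0.04) with 11 libraries. FOSL2 was at 17.3, 13.8 and 14.3 CPM in sgEGR1 PBS against 13.7, 10.6 and 9.93 CPM in sgControl PBS, so that within each replicate number the sgEGR1 library was higher before stimulation. JUNB rose by 0.65 and 0.72 with a difference of 0.06 (interval from -0.13 to 0.26), and MAFG by 0.34 and 0.40 with a difference of 0.06 (from -0.06 to 0.17). The median response difference of the tested AP-1 genes was 0.12 and their median half-width 0.386, beside medians of 0.00 and 0.263 over all genes.

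Of 12 tested ERK phosphatases and Sprouty or SPRED genes, which are feedback inhibitors of ERK signalling, 10 had a called average response upward, 7 were called in sgControl cells and 9 in sgEGR1 cells (7 with 11 libraries). DUSP6, the cytoplasmic ERK phosphatase, was at 2.40 to 3.21 CPM in sgControl PBS and at 12 to 17 CPM in sgControl SCF, with 2.62 to 3.41 and 12.8 to 18.1 CPM in sgEGR1 cells. It rose by 2.38 and 2.43, and the difference was 0.06 (interval from -0.46 to 0.57). DUSP5, a nuclear ERK phosphatase, was at 0.759, 0.748 and 0.543 CPM in sgControl PBS, at 1.72, 2.07 and 1.48 CPM in sgControl SCF, at 0.426, 0.373 and 0.384 CPM in sgEGR1 PBS and at 1.14, 1.98 and 2.50 CPM in sgEGR1 SCF. It was lower in all sgEGR1 PBS libraries than in any sgControl PBS library, while the stimulated ranges overlapped.

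The DUSP5 response was 1.35 ± 0.29 in sgControl and 2.23 ± 0.32 in sgEGR1 cells, with a difference of 0.88 (interval from -0.06 to 1.83, unadjusted p = 0.0628) that fell to 0.64 with 11 libraries. Among the Sprouty and SPRED inhibitors of RAS signalling, the difference was 0.96 for SPRY4 (interval from -0.97 to 2.90). The other differences were -0.28 for SPRY1, -0.20 for SPRY2, -0.22 for SPRED1 and -0.32 for SPRED2, and these 4 intervals also included 0. SPRED2 was at 31.8, 19 and 17.6 CPM in sgControl SCF and at 23, 19.1 and 17.2 CPM in sgEGR1 SCF, beside 15.1 to 17.4 CPM in sgControl PBS and 17.4 to 18.3 CPM in sgEGR1 PBS. Replicate 1 was the highest stimulated library with either guide, and the response was called in neither group (adjusted p = 0.0529 in sgControl cells and 0.600 in sgEGR1 cells).

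Of 21 other immediate early genes tested, 10 rose and 2 fell on average, with 9 rising in each guide group and in sgEGR1 cells with 11 libraries. MYC, a driver of growth and ribosome production, was at 210.1 to 233 CPM in sgControl PBS and 428 to 441 CPM in sgControl SCF, with 196 to 237 and 372 to 453 CPM in sgEGR1 cells. It rose by 0.97 and 0.94 with a difference of -0.03 (interval from -0.19 to 0.12). IER2 rose by 1.21 and 1.46 (difference 0.26, interval from -0.02 to 0.53) and SRF, the serum response factor, by 1.03 and 1.12 (difference 0.09, from -0.15 to 0.33). KLF2, a low gene at 0.298 to 1.17 CPM, had the smallest unadjusted p for the difference of this list. Its difference was 1.12, with an interval from 0.12 to 2.13 (edgeR unadjusted p = 0.0315), and neither response was called. Over the 4 lists of EGR and NAB, AP-1, ERK feedback and other immediate early genes, 49 genes were tested, 3 of them (6.12%) had an unadjusted p under 0.05 for the difference (FOSB, FOSL2 and KLF2), and 1 (NAB2) did with 11 libraries.

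**Figure D4:**
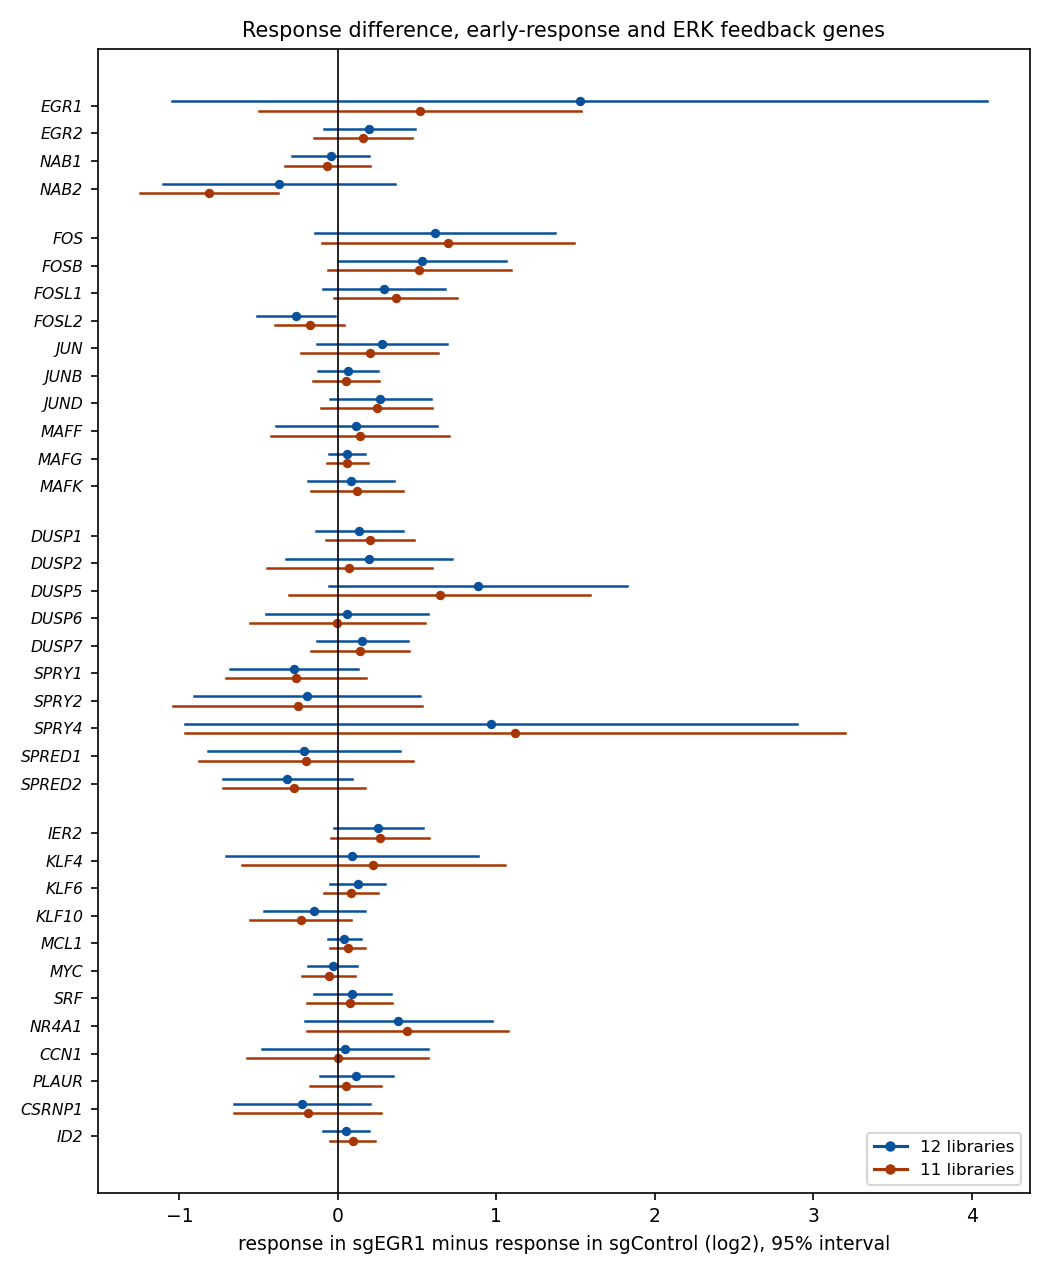
Response difference (log2, sgEGR1 minus sgControl) with 95% intervals for the 36 early-response and ERK feedback genes with a called average response and an interval, for 12 libraries (blue) and 11 libraries (brown). The interval of NAB2 lies below 0 with 11 libraries (from -1.25 to -0.38), while the wide intervals of EGR1 and SPRY4 include 0 in both fits.

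Of 11 tested SRF and actin targets, 7 rose on average, beside 18.5% of all genes called in either direction, and the same number was called with each guide (6 in sgEGR1 cells with 11 libraries). ACTB rose by 0.34 and 0.36 (difference 0.02, interval from -0.09 to 0.14), ACTG1 by 0.49 and 0.52, and TPM4 by 0.85 and 0.71 (difference -0.13, from -0.35 to 0.09). All 7 intervals excluded a 1.5-fold difference and had a half-width below the average response. TPM4 was at 64.1 to 73.3 CPM in sgControl PBS and at 88.9 to 94.7 CPM in sgEGR1 PBS, so its level differed between guides before stimulation without overlap. Of 11 tested ETS factors, 2 rose and 1 fell on average (27.3%). ETS2 rose by 0.93 in both groups (difference -0.01, from -0.19 to 0.17) and ERF by 0.43 in both. Of 10 mRNA decay factors, 3 rose and 2 fell on average. They include BTG3, which rose by 0.79 and 0.77, and PNRC1, which fell by 1.40 and 1.36 on the log2 scale.

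The cytokine feedback genes had responses of either sign. Of 10 tested, 6 rose and 2 fell on average. CISH, a STAT5 target that inhibits cytokine receptors, was at 23 to 25.9 CPM in sgControl PBS and at 38.2 to 49.5 CPM in sgControl SCF, with 22.9 to 25.1 and 32.7 to 49 CPM in sgEGR1 cells. It rose by 0.87 and 0.79 with a difference of -0.09 (interval from -0.32 to 0.15). SOCS2 and the kinase PIM3 rose with both guides, and the kinase PIM1 fell by 0.52 with both. SOCS1 was called in sgControl cells and not in sgEGR1 cells (it fell by 0.82 on the log2 scale, adjusted p = 0.0446), and its difference of 0.48 had an interval from -0.22 to 1.18. Of 10 NF-kB genes, 4 rose on average, among them the inhibitor TNFAIP3, by 0.73 and 0.79, while NFKBIE was called in sgControl cells and not in sgEGR1 cells, with a difference of -0.32 (from -0.70 to 0.06).

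In the list of FOXO factors and starvation-induced genes, falls were called with both guides. This list, like the others, was chosen with earlier results of these data known, so its share called is not independent evidence. Of 24 tested, 16 fell and 2 rose on average (75%, beside 18.5% of all genes). In sgControl cells 13 fell, and in sgEGR1 cells 14 (13 with 11 libraries). ARRDC3, an arrestin domain protein, was at 84, 66.5 and 67.5 CPM in sgControl PBS and at 30.7, 33 and 31.6 CPM in sgControl SCF. It was at 101, 69.5 and 69.5 CPM in sgEGR1 PBS and at 36.7, 32.5 and 36.4 CPM in sgEGR1 SCF. Its responses of -1.18 and -1.17 differed by 0.01 (interval from -0.28 to 0.31). CCNG2, a cyclin linked to growth arrest, fell by 1.08 and 1.02, PIK3IP1, an inhibitor of PI3K, by 0.89 and 0.93, and CITED2 by 0.63 and 0.59. The intervals of 16 of the 18 genes with a called average response excluded a 1.5-fold difference. The listed gene with the smallest unadjusted p was RICTOR, a subunit of mTORC2. It was at 68.7 to 75.9 CPM in sgControl PBS, 67.9 to 72.2 CPM in sgControl SCF, 78.2 to 79.8 CPM in sgEGR1 PBS and 65.5 to 68.2 CPM in sgEGR1 SCF. RICTOR fell in sgEGR1 cells (by 0.24 on the log2 scale, adjusted p = 0.00337), and the difference of -0.19 (from -0.32 to -0.06, unadjusted p = 0.00797) was not called after adjustment.

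Cell cycle and survival genes included members of either direction. Of 19 tested G1 cyclins, CDKs and inhibitors, 7 rose and 3 fell on average. CCND1 rose by 0.80 and 0.77 with a difference of -0.03 (interval from -0.30 to 0.24). The CDK inhibitor CDKN1B was at 95.8 to 104 CPM in sgControl PBS and 54.9 to 66.7 CPM in sgControl SCF, with 97.7 to 105 and 61.5 to 62.7 CPM in sgEGR1 cells, and the difference between its responses was 0.01 (from -0.17 to 0.19). Of 14 tested BCL2 family genes, 5 rose and 3 fell on average. The proapoptotic genes BCL2L11, BBC3 and BMF fell in both groups, with BBC3 at -0.71 and -0.64. The BH3-only gene PMAIP1 was called in sgEGR1 cells and not in sgControl cells (it rose by 0.55, adjusted p = 0.02). It was at 5.88, 3.88 and 5.20 CPM in sgEGR1 PBS and at 8.66, 5.83 and 7.46 CPM in sgEGR1 SCF, against 8.45, 7.01 and 7.10 CPM in sgControl PBS and 9.73, 8.20 and 6.85 CPM in sgControl SCF. The PMAIP1 difference was 0.42 (from 0.03 to 0.82, unadjusted p = 0.0363), or 0.33 (from -0.07 to 0.74) with 11 libraries.

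Of 24 ribosome biogenesis factors, 10 rose on average (41.7%, beside 18.5% of all genes in either direction), 8 in sgControl and 7 in sgEGR1 cells (6 with 11 libraries). Their median response was 0.271 log2 units, and the half-width of the difference was below the response for 8 of the 10 and for 7 with 11 libraries. NIP7 rose by 0.62 and 0.65 and NOP56 by 0.29 and 0.31. DDX21, an RNA helicase of the nucleolus, was at 241, 211 and 226 CPM in sgControl PBS and at 261, 246 and 246 CPM in sgControl SCF, against 245, 234 and 232 CPM in sgEGR1 PBS and 245, 237 and 234 CPM in sgEGR1 SCF. It was called in sgControl cells and not in sgEGR1 cells (it rose by 0.15, adjusted p = 0.0119), and its difference was -0.14 (interval from -0.25 to -0.04, unadjusted p = 0.00877). RRS1 had differences of -0.13 (from -0.32 to 0.06) and, with 11 libraries, -0.21 (from -0.36 to -0.07, unadjusted p = 0.00814).

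Of 23 tested ATF4 targets and tRNA synthetases, 10 rose on average, 8 in sgControl and 7 in sgEGR1 cells. ATF4 rose by 0.41 and 0.40, and the interval of the difference was from -0.15 to 0.15. CHAC1, a glutathione-degrading enzyme, was at 1.57 to 1.70 CPM in sgControl PBS and at 10.1, 5.30 and 6.54 CPM in sgControl SCF, with 1.5 to 1.83 CPM in sgEGR1 PBS and 10.3, 9.26 and 4.71 CPM in sgEGR1 SCF. It rose with no overlap by 2.12 and 2.23, and the spread of the stimulated libraries left an interval from -0.64 to 0.87 for the difference, which was 0.35 (from -0.22 to 0.93) with 11 libraries. In the MYC network 3 genes rose and 3 fell on average of 11 tested. Of 20 cholesterol genes 3 (15%) rose on average. Of 22 glycolysis and hypoxia genes 5 rose and 1 fell (27.3%), and of 14 heat shock genes 3 (21.4%) rose, led by DNAJB1 with 0.38 and 0.43. Of 6 tested growth factor ligands 2 rose, VEGFA by 0.41 and 0.48 and LIF by 1.30 and 1.22. The cholesterol and heat shock shares lie near the 18.5% of all genes.

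Of 15 erythroid transcription factors and partners, 2 rose and 4 fell on average, among them GATA2, described above. Their median response of 0.219 log2 units was small, and the half-width of the difference was below the response for 4 of the 6 and for 3 with 11 libraries. BCL11A, a repressor of fetal globin, fell by 0.39 and 0.32 (difference 0.07, interval from -0.15 to 0.30). Of 19 globin and heme synthesis genes, 10 fell on average and 0 rose, with 5 called in sgControl and 7 in sgEGR1 cells, but 2 in sgEGR1 cells with 11 libraries. SLC25A37, the mitochondrial iron importer, fell by 0.16 and 0.20, with a difference of -0.05 (from -0.16 to 0.07). The fetal globin HBG2 was at 27.9 to 45.6 CPM in sgControl libraries and at 50.4 to 92.7 CPM in the sgEGR1 libraries other than SCF replicate 3, which was at 38.8 CPM. HBG1 and HBG2 are near-identical copies, so the split of reads between them is uncertain. For the embryonic globin HBE1, at 0.400 to 1.25 CPM, the difference was 1.18 (from 0.28 to 2.09, unadjusted p = 0.0138), or 1.39 (from 0.51 to 2.29) with 11 libraries.

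Of 11 iron genes, 2 (18.2%) fell on average, SLC40A1 and TFR2, which is near the 18.5% of all genes. Of 29 components of Kit and EPO receptor signalling, 4 rose and 4 fell (27.6%). KIT itself was at 462 to 522 CPM in sgControl and at 509 to 554 CPM in sgEGR1 libraries, and its response difference was -0.05 (interval from -0.19 to 0.08). EPOR fell by 0.13 and 0.14. SOS1, the exchange factor for RAS, had a difference of -0.15 (from -0.28 to -0.02, unadjusted p = 0.0236), with neither response called.

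**Figure D5:**
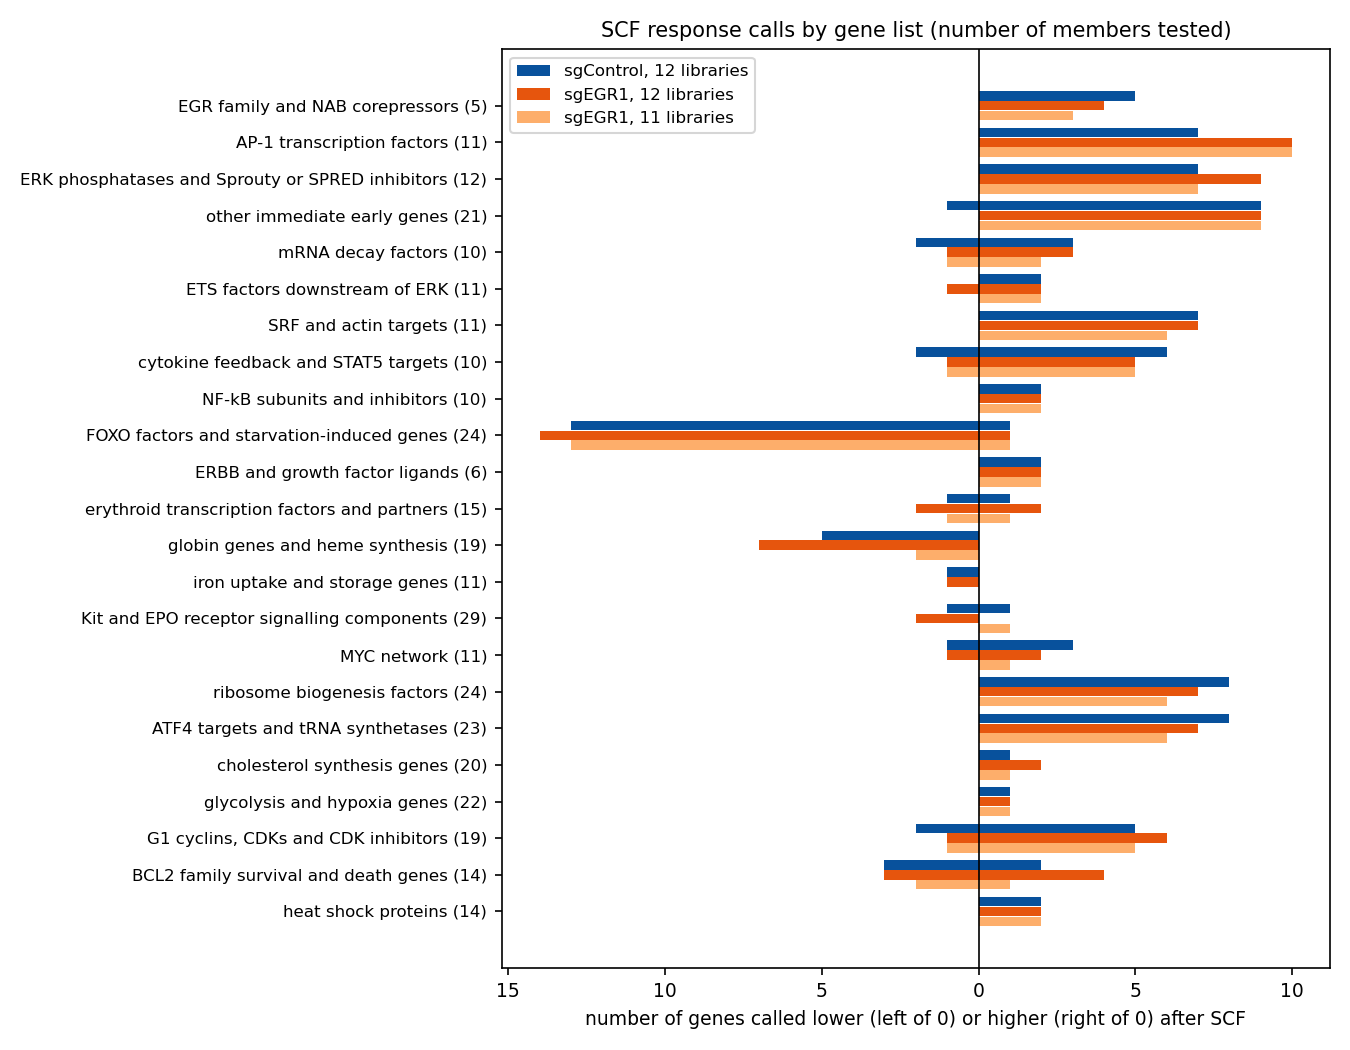
Number of members of each of 23 gene lists called higher (right of 0) or lower (left of 0) after SCF in sgControl cells, in sgEGR1 cells and in sgEGR1 cells with 11 libraries, with the number tested in brackets. AP-1 genes were called 7 times with sgControl and 10 times with sgEGR1, and the difference between the guides was called for 0 members of any list in either fit.

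The next list holds genes described elsewhere as EGR1 targets. Of 22 listed, 16 were tested and 7 rose on average, 7 in sgControl cells, 6 in sgEGR1 cells and 5 with 11 libraries. NAB2 was the 1 member called with sgControl only. CDK5R1, a neuronal CDK5 activator, was at 2.71 to 3 CPM in sgControl PBS and at 4.90 to 7.16 CPM in sgControl SCF, with 2.41 to 2.64 and 4.47 to 6.18 CPM in sgEGR1 cells. It rose by 0.98 and 1.08, with a difference of 0.10 (interval from -0.30 to 0.50). The median response difference of the 16 genes was 0.01 with a median half-width of 0.381, and the 9 genes with no called average response enter that median. Of 18 tested genes that the study names, 10 rose and 2 fell in each guide group, and 8 rose and 1 fell in sgEGR1 cells with 11 libraries. The study chose these on the same samples in part, so they are not independent evidence. Over all lists together, 359 genes were tested, 11 (3.06%) had an unadjusted p under 0.05 for the difference and 10 (2.79%) did with 11 libraries.

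Among genes with a mean of at least 2 CPM, the 4 with the smallest unadjusted p for the difference in each direction were mostly noncoding or readthrough transcripts. RNA45SN4, a ribosomal RNA precursor gene of a repeated array whose copies share reads, was at 126, 187 and 175 CPM in sgControl PBS and at 96.4, 127 and 106 CPM in sgControl SCF. It was at 123, 131 and 169 CPM in sgEGR1 PBS and at 200.3, 194 and 199.7 CPM in sgEGR1 SCF. The stimulated sgControl libraries did not overlap the stimulated sgEGR1 libraries. The responses were -0.56 (adjusted p = 0.00579) and 0.50 (adjusted p = 0.0106), and the difference was 1.06 (interval from 0.74 to 1.38, edgeR adjusted p = 0.129), or 1.10 with 11 libraries (adjusted p = 0.0737). DESeq2 called it (adjusted p = 0.000326). In edgeR's test it was called with no filter on low counts (adjusted p = 0.00327), without sgControl PBS replicate 1 (adjusted p = 0.0270) or without sgEGR1 PBS replicate 3 (adjusted p = 0.0356).

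MALAT1, a nuclear noncoding RNA, was at 637, 539.9 and 517 CPM in sgControl PBS and at 697, 539 and 462 CPM in sgControl SCF, against 617, 480 and 481 CPM in sgEGR1 PBS and 813, 642 and 589 CPM in sgEGR1 SCF. Within each replicate number it was higher after SCF in sgEGR1 cells, while sgControl libraries moved in both directions. The difference was 0.38 (interval from 0.21 to 0.55), with 0.42 for 11 libraries, and DESeq2 called it (adjusted p = 0.00157) while edgeR did not. DANCR, a noncoding host gene of small nucleolar RNAs, had a difference of 0.24 (from 0.12 to 0.36) and was at 46.4 to 48.5 CPM in sgEGR1 PBS against 51.5 to 58.5 CPM in all other libraries. EEF1E1-BLOC1S5, a readthrough transcript that shares exons with EEF1E1 and BLOC1S5, had a difference of 2.84 (from 1.57 to 4.12).

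In the opposite direction stood the readthrough transcripts SYS1-DBNDD2 and ZNF8-ERVK3-1, the centrosomal gene CEP162 and the uncharacterised LOC112268235. SYS1-DBNDD2 was at 13.2, 11.1 and 8.60 CPM in replicate 1 of sgControl PBS, sgControl SCF and sgEGR1 PBS and at 0 in the other 9 libraries, so its value rests on 4 libraries of replicate 1. CEP162 was at 43.6, 44.7 and 46.7 CPM in sgControl PBS, at 41.8 to 44.2 CPM in sgControl SCF, at 45.9 to 50.9 CPM in sgEGR1 PBS and at 39.6 to 41.8 CPM in sgEGR1 SCF. It fell in sgEGR1 cells (by 0.27 on the log2 scale, adjusted p = 0.00152), and the difference was -0.21 (from -0.34 to -0.08). Among genes with a called average response, the smallest unadjusted p for a smaller response in sgEGR1 cells included SIAE, a sialic acid esterase, and the histone gene H2AC17. SIAE was at 31.1 to 33.7 CPM in sgControl PBS, 23.9 to 28.0 CPM in sgControl SCF, 25.6 to 29.4 CPM in sgEGR1 PBS and 25.9 to 29.7 CPM in sgEGR1 SCF. Only the sgControl PBS libraries stood apart. The difference was 0.29 (from 0.13 to 0.45) for SIAE and 0.78 (from 0.33 to 1.22) for H2AC17, and neither was called after adjustment over all genes.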

How the data were processed

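RNA was sequenced from 12 HUDEP-2 libraries, 3 in each of 4 groups given by the labels. According to the study's methods, the authors aligned paired reads to hg38 with HISAT and quantified genes with StringTie, and they deposited estimated counts per gene, all whole numbers. The submitters' processing notes list bcl2fastq, HISAT2, SAMtools and hg38. The annotation release and the use of strand in counting are not given in the sources used here. The kit in the labels is not the kit in the methods.

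Genes were filtered with filterByExpr, scaled by TMM and fitted with edgeR 4.0.16 (R 4.3.3) by a quasi-likelihood model of group means and a term for replicate 1, with all 12 libraries or with 11. All responses, averages and differences are contrasts of that model, and p-values were adjusted by the Benjamini-Hochberg method over all genes tested. Unadjusted p-values are from the same model unless named as exact permutation p-values. Intervals are 95% Wald intervals and cover the spread between libraries. The kept test took the larger p of both conditions, doubled. DESeq2 1.42.0 and other settings were alternatives, and the scripts were tested on simulated data. Named genes were EGR1, NAB2, called genes, the 4 smallest p in each direction with a mean of at least 2 CPM, the same number among genes with a called average response, up to 4 leading members and the member with the smallest p of each list, and the 6 smallest kept p. SPRY1, SPRY2, SPRY4, SPRED1, SPRED2, KIT, HBG2 and STAT6 were named outside this rule after their values were seen. Members and lists were chosen with earlier results of these data known. Depth limits what could be seen, as the half-widths by CPM show. Some items are not reported here.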

Additional observations from a re-analysis of the deposited data

Results flagged for a closer look

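BZW1-AS1 and TCAF1P1 had a response difference between the guides with 11 libraries (edgeR adjusted p = 0.00296 for each), in opposite directions and with a group at 0. BZW1-AS1 lies antisense to BZW1 and TCAF1P1 is a pseudogene, so reads may be shared with other genes.

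SYNGR4 moved in opposite directions with the guides in every replicate. The unadjusted p of its difference from edgeR's quasi-likelihood test was 0.000137. The pattern was sought among the named genes only. SYNGR4 had been named for its small unadjusted p for the difference, so that p is no separate evidence. EdgeR did not call the gene (adjusted p = 0.530), whereas DESeq2 did (adjusted p = 0.0368). It was at 0.361, 0.354 and 0.698 CPM in sgControl PBS, at 0.281, 0.233 and 0.251 CPM in sgControl SCF, at 0 in all sgEGR1 PBS libraries and at 0.587, 0.277 and 0.312 CPM in sgEGR1 SCF.

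ZNF8-ERVK3-1 also moved in opposite directions in every replicate. The unadjusted p of its difference from the same test was 0.00302. It was picked in the same way and was not called (edgeR adjusted p = 0.985). It was at 10.6, 8.94 and 9 CPM in sgControl PBS, at 12.5, 10.9 and 11 CPM in sgControl SCF, at 16.9, 19 and 15.8 CPM in sgEGR1 PBS and at 15.3, 6.83 and 11.8 CPM in sgEGR1 SCF. It shares exons with ZNF8 and ERVK3-1.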

How the results depend on the processing

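With all libraries, the number of genes called for the response difference (0) was 8 with DESeq2, 2 with no filter on low counts, 2 with replicates 2 and 3 only, and 0 to 2 with 1 library left out (2 without sgControl PBS replicate 1, sgControl PBS replicate 2, sgEGR1 PBS replicate 3 or sgEGR1 SCF replicate 3). With 11 libraries the count of 2 was 13 with DESeq2 and 4 with no filter, and 2 to 11 with a further library left out, an alternative chosen after seeing the data. The latter count was 6 without sgControl PBS replicate 1, 4 without sgControl PBS replicate 2 or sgEGR1 PBS replicate 2, 8 without sgEGR1 PBS replicate 3, 5 without sgEGR1 SCF replicate 1 and 11 without sgEGR1 SCF replicate 2. Calls for the SCF response in sgControl cells (1289) were 448 with no replicate 1 term, 575 with replicates 2 and 3 only and 646 to 1279 with 1 library left out. In sgEGR1 cells (1326) they were 402, 690 and 711 to 1346 under the same settings. Kept responses (12) were 2 with no replicate 1 term, 19 with no filter, 7 with replicates 2 and 3 only and 6 to 10 with 1 library left out. The median half-width was 0.4872 with no filter, where more low genes entered. The cause of the other changes was not tested. The NAB2 difference ranged from -0.81 to -0.06 with 1 library left out, and was -0.02 with replicates 2 and 3 only. The EGR1 difference ranged from 0.52 to 2.01 with 1 library left out.

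Correlations of the deviations between same-numbered libraries were positive in every pair of groups. They were 0.331 to 0.419 for replicate 1, for which the model has a term, 0.0694 to 0.174 for replicate 2 and 0.0757 to 0.212 for replicate 3. Deviations sum to 0 within a group, so a shift shared by replicate 1 also makes the correlations of replicates 2 and 3 positive. Between the guides within a treatment all correlations were above 0.1, whereas not every pair was between treatments. The numbers were not taken to pair the samples. With a replicate block, 0 genes were called for the difference, 1184 and 1235 for the response in sgControl and sgEGR1 cells and 11 as kept, the median half-width was 0.2645, and the differences were 1.37 for EGR1 and -0.39 for NAB2. Of the values of single named genes under the alternatives, 1996 were classed as the same, 153 as moved and 10 as stronger. The 10 passed the threshold only under the alternative, and 0 called values changed direction.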
